A study of Mus musculus with 6 samples.

Results

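SMAD1/5 binding was examined at 4 loci of the LIF-STAT3 pathway, Stat3, Socs3, Junb and Pim1, in naive mouse embryonic stem cells (ESCs) and in primed cells differentiated from them, the ESC-derived epiblast stem cells (ESD-EpiSCs). Each locus was taken as a fixed window of 200 kb on the mm9 build. The windows were chr11:100680000-100880000 for Stat3, chr11:117730000-117930000 for Socs3, chr8:87400000-87600000 for Junb and chr17:29530000-29730000 for Pim1. A peak belonged to a window when it overlapped it by at least 1 bp. The windows held 22 of the 18623 regions made by merging the peaks of all 4 lists. By list, they held 13 of 9387 LIF+serum peaks, 21 of 14696 LIF+BMP-4 peaks, 0 of 225 ESD-EpiSC peaks at 1.5 h and 0 of 133 at 24 h.

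All cells came from the E14 line, and SMAD1/5-bound chromatin was precipitated with an anti-Smad1 antibody and sequenced. One group of ESCs grew in serum with LIF at 1000 U/ml, and the other in a basal medium with LIF and BMP-4 at 10 ng/ml. The ESD-EpiSCs were kept in N2B27 medium with FGF2 at 12 ng/ml and Activin A at 20 ng/ml, and received BMP-4 at 10 ng/ml for 1.5 h or for 24 h. Each of these 4 groups was 1 library, so differences between groups have no replicate error and were not tested. LIF is named for the ESC groups only, so LIF, pluripotent state, medium and library cannot be told apart. Peak lists hold no expression values, so the identity of the cells could not be checked against marker genes.

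LIF binds a receptor made of LIFR and gp130, whose JAK kinases phosphorylate the transcription factor STAT3. STAT3 then enters the nucleus and sustains self-renewal of naive mouse ESCs. Socs3 encodes a feedback inhibitor that acts on gp130 and JAK, and Junb (an AP-1 transcription factor) and Pim1 (a serine/threonine kinase) are classical targets of STAT3. BMP-4 acts through SMAD1 and SMAD5 and, together with LIF, maintains ESCs without serum. The windows ask whether SMAD1/5 was called near genes of the LIF branch.

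The windows reach well past the 4 genes. In the RefSeq gene table of GRCm38.p6, used here for names and order only, Stat3 lies next to Stat5a and Stat5b, which encode related STAT factors, on one side and to Cavin1 on the other. Socs3 lies between Tha1 and Pgs1, Junb between Prdx2 and Hook2, and Pim1 between Fgd2 and Tmem217. Gene positions on mm9 were not used, so no peak below is assigned to a gene, a promoter, an exon or an intron. Distances are given from the centre of the window, which is not a transcription start site.

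The promoters of the 4 genes are shown first, because STAT3 is known to act through sites near the start of such genes. They are the 250 bases upstream of the annotated start, 5′ to 3′ on the gene's strand, from RefSeq on GRCm38.p6. These coordinates cannot be set against the mm9 peaks. Capitals mark matches, on either strand, to the STAT motif TTCNNNGAA (which contains the narrower TTCCNGGAA) and to the SMAD motifs GGCGCC and also GGAGCC and also CAGAC.
Stat3, chr11:100939541-100939790, minus strand: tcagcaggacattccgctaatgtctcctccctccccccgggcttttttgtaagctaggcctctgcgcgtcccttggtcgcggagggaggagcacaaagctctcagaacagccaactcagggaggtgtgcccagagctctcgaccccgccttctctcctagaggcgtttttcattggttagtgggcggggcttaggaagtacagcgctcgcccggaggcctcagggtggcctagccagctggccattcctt
Socs3, chr11:117969367-117969616, minus strand: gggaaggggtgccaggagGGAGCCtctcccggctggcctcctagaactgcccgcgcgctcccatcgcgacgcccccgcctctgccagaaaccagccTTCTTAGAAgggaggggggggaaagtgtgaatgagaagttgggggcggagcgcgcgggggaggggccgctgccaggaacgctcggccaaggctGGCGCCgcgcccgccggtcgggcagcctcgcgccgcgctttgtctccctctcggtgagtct
Junb, chr8:84978749-84978998, minus strand: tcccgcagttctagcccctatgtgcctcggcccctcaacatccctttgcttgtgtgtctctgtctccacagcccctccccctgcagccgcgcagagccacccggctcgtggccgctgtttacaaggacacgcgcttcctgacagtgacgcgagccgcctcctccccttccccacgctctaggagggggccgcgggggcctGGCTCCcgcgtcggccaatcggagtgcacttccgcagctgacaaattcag
Pim1, chr17:29490535-29490784, plus strand: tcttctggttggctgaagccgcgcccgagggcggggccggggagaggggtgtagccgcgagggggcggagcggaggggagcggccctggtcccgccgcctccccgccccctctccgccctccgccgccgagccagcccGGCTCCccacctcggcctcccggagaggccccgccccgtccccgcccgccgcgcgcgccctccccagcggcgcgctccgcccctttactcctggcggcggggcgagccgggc

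Of these 4, the Socs3 promoter alone held both a STAT and a SMAD match. Its TTCTTAGAA began 154 bases before the start, a GGCGCC 61 bases before it and a GGAGCC 232 bases before it. Among 32544 RefSeq promoters of the same length, 7.04% held TTCNNNGAA, 9.65% held GGCGCC, 26.1% held GGAGCC, 42.2% held CAGAC and 0.919% held TTCCNGGAA. The share that held a STAT and a SMAD match together was not computed. Junb and Pim1 each held 1 GGAGCC match, read on the opposite strand as GGCTCC. The Stat3 promoter held 0 matches to any of the motifs. A further RefSeq start of Pim1, not printed, held 1 CAGAC match. A match describes the letters only.

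SMAD1/5 was called in both ESC media at every locus. All 4 windows held a peak of both ESC lists, as did 30.7% of the 12823 consecutive tiles of 200 kb between the first and last peak of each chromosome. A LIF+serum peak was present in 35.3% of tiles and a LIF+BMP-4 peak in 45.5%. The tiles were not matched for gene content, whereas the windows were placed at genes. The median tile held 0 peaks of either list, and the median tile with any peak held 1 LIF+serum or 2 LIF+BMP-4 peaks.

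The Junb window held the most peaks of the 4, with 5 LIF+serum and 7 LIF+BMP-4 peaks, numbers that 2.79% and 2.62% of tiles reached. Pim1 followed with 3 and 6 peaks, reached by 9.08% and 4.12% of tiles. Stat3 had 3 and 4 peaks, reached by 9.08% and 9.89%. Socs3 had the fewest LIF+serum peaks, 2, a number reached by 17.6% of tiles, and its 4 LIF+BMP-4 peaks were matched or passed by 9.89%. All 4 windows thus lay in the upper part of the tile distribution, and Socs3 in LIF+serum came closest to an ordinary occupied tile.

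**Figure D1:**
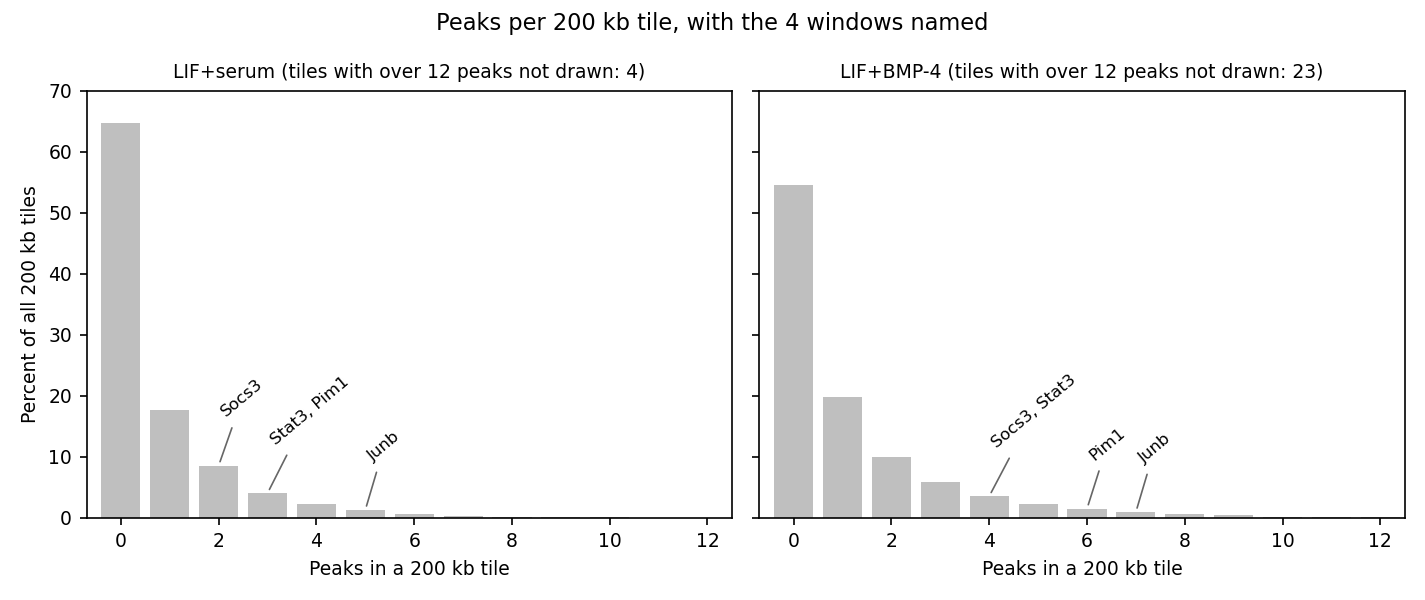
Share of 200 kb tiles (y axis, percent of 12823 tiles) by the number of peaks in a tile (x axis), for LIF+serum on the left and LIF+BMP-4 on the right, 1 library each. The names mark the number of peaks in the 4 windows: 2, 3, 5 and 3 LIF+serum peaks for Socs3, Stat3, Junb and Pim1, and 4, 4, 7 and 6 LIF+BMP-4 peaks.

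Every window had more LIF+BMP-4 than LIF+serum peaks, which was the case in 30.1% of tiles. That share also counts tiles without a LIF+BMP-4 peak, which cannot have this order. Of the 5831 tiles with a LIF+BMP-4 peak, 3860 had it, so it was common among occupied tiles. The LIF+BMP-4 list is also the longer one overall. With both lists at equal length, the LIF+BMP-4 list keeping its 9387 highest scores, each held 13 peaks in the windows. The LIF+BMP-4 numbers then became 3 for Socs3, 2 for Stat3, 4 for Junb and 4 for Pim1. They were higher than in LIF+serum at Socs3 and Pim1 and lower at Stat3 and Junb.

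Most LIF+serum sites of these loci were also LIF+BMP-4 sites. Of the 13 LIF+serum peaks, 12 overlapped a LIF+BMP-4 peak (92.3%, exact Clopper-Pearson 95% interval 64.0 to 99.8), against 58.8% of the whole LIF+serum list. Of the 21 LIF+BMP-4 peaks, 12 overlapped a LIF+serum peak (57.1%, 34.0 to 78.2), against 38.7% of that list. Both shares count the same 12 pairs, so they differ only through the 13 and 21 peaks they are taken from. With lists of equal length, 9 of 13 peaks (69.2%) had a partner in either direction. The 2 shares had to be equal there, because each list held 13 peaks and the pairs were one-to-one. The shares of the whole lists at equal length were not computed. With a limit of 100 set on the score of each list, which keeps different shares of the 2 lists (given below), a partner was found for 3 of the 4 from LIF+serum, and for 3 of the 8 (37.5%) from LIF+BMP-4. The shares of the whole lists at this limit were not computed, so these counts cannot be set against 58.8% and 38.7%. The intervals cover counting error only. Peaks of 1 library in 4 chosen windows are not independent, and the difference from the list was not tested. Of the 22 regions, 12 were called in both media, 9 in LIF+BMP-4 only and 1 in LIF+serum only. The shared regions numbered 2 for Stat3, 2 for Socs3, 5 for Junb and 3 for Pim1.

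The 12 shared regions were closely aligned. Their midpoints lay a median of 41.5 bp apart (range 0 to 285), against 70.5 bp over all 5330 one-to-one pairs of the 2 lists, and 9 of the 12 lay at most 100 bp apart. The median over all pairs is itself below 100 bp, so most pairs of the lists met that limit too. The LIF+serum peak was the wider one in 10 of 12 pairs, against 92.6% of all pairs. The median ratio of widths was 1.55, close to the 1.48 over all pairs. The LIF+BMP-4 peak lay wholly within the LIF+serum peak in 9 of 12 pairs (75.0%), against 69.6% of all pairs.

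The deposited score ranks peaks within 1 list and is not comparable between lists. A score percentile is used below, the percent of peaks of the same list that score lower. The window peaks as a whole had ordinary scores, with a median percentile of 48.6 for the LIF+serum peaks and 43.2 for the LIF+BMP-4 peaks. Scores of 100 or more were held by 4 of 13 LIF+serum peaks, against 23.1% of the list, and by 8 of 21 LIF+BMP-4 peaks, against 29.7%. In LIF+serum all 4 of these were shared regions, and in LIF+BMP-4 5 of the 8 were. Most peaks with such scores were shared in the whole lists too. Only 302 of 2165 in LIF+serum and 1375 of 4372 in LIF+BMP-4 had no partner.

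**Figure D2:**
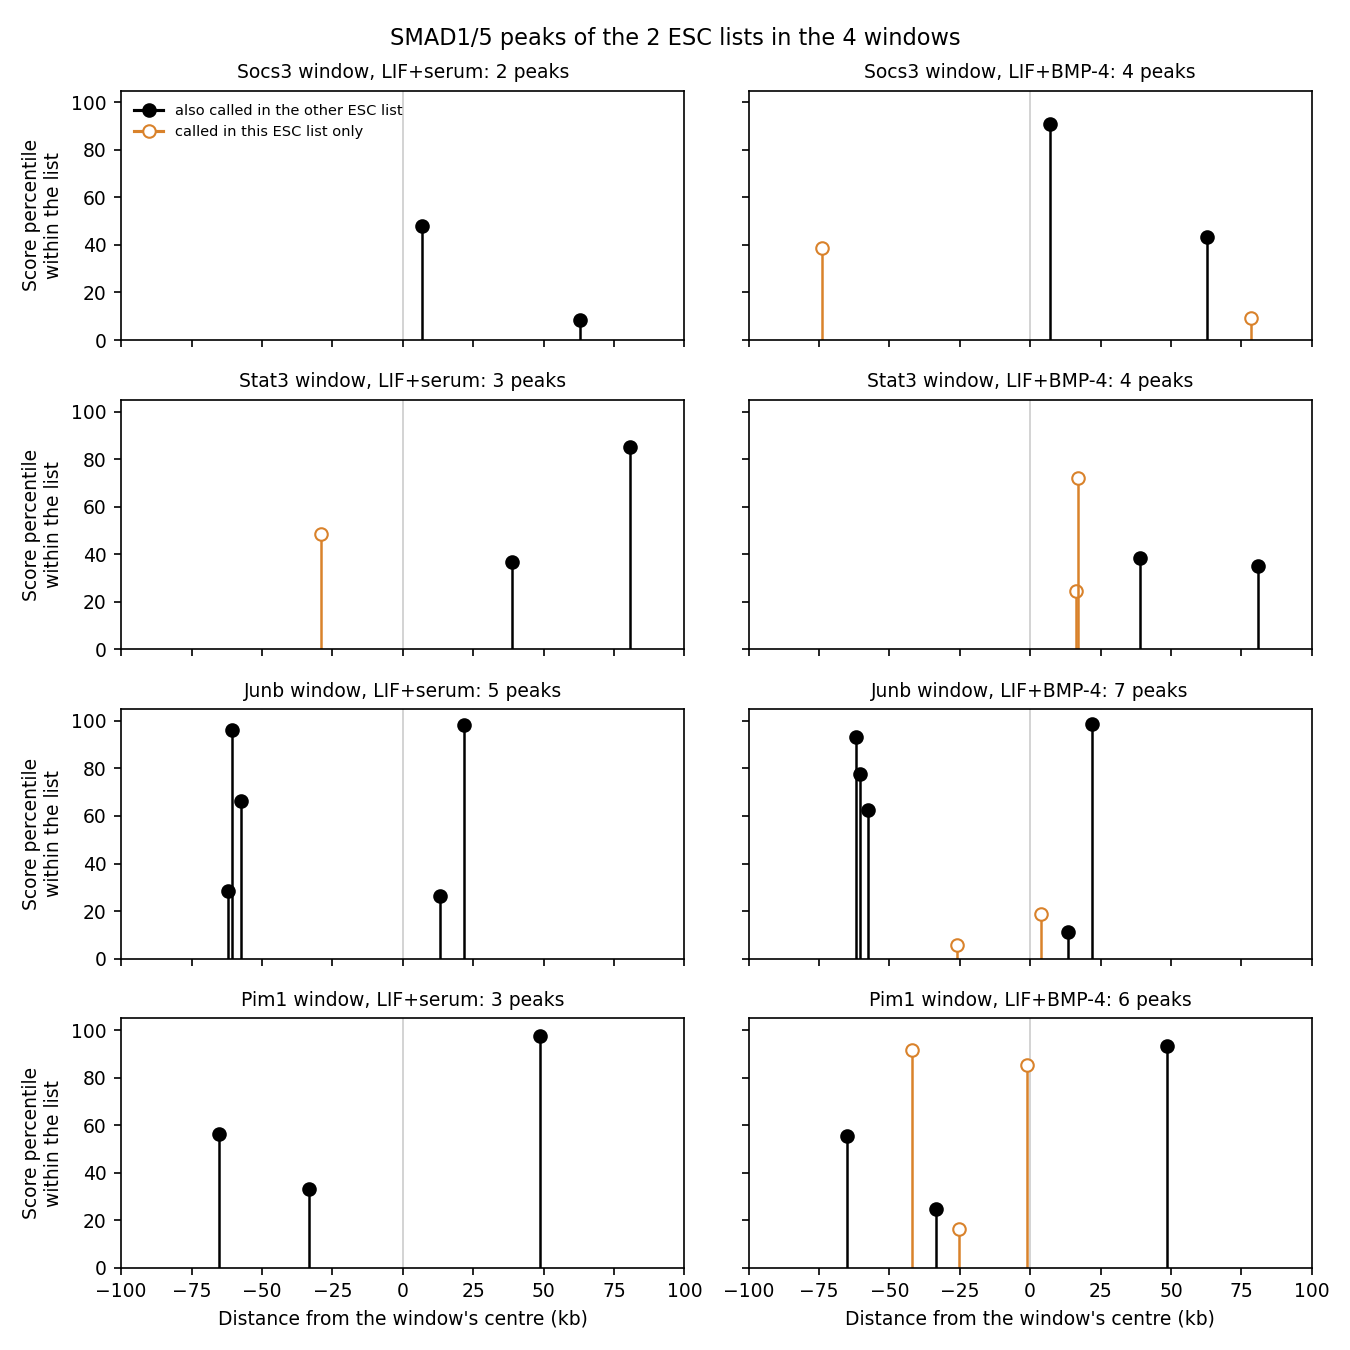
Peaks of the 2 ESC lists in the windows of Socs3, Stat3, Junb and Pim1, by distance of the peak's midpoint from the window's centre (x axis, kb) and score percentile within the list (y axis). Filled black points were called in both ESC lists and open orange points in 1 only: the Pim1 window has 3 open points in LIF+BMP-4, 2 of them at percentiles 91.6 and 85.3, and Stat3 has the only open point in LIF+serum. Each panel is 1 library.

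At the Stat3 locus, which encodes the LIF-activated factor itself, the highest peak was not the same in the 2 media. The highest LIF+serum peak, at chr11:100860402-100861270, scored 121 and ranked 1411 (percentile 85.0). Its LIF+BMP-4 partner at chr11:100860509-100861015 scored 65.0, ranked 9574 (34.8) and was only the third of 4 peaks there. The other shared region, at chr11:100818407-100819437 in LIF+serum, had rank 5958 (36.5) there and rank 9029 (38.5) in LIF+BMP-4.

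The highest LIF+BMP-4 peak of the Stat3 window had no LIF+serum counterpart. It lay at chr11:100796735-100797109, 16.9 kb from the centre, scored 103 and ranked 4117 (72.0). A lower-scoring peak at chr11:100796044-100796442 (rank 11068) lay 292 bp from it, and whether the 2 calls are 1 bound stretch was not tested. The nearest LIF+serum peak was 21.3 kb away. LIF+serum in turn had a peak of its own at chr11:100750479-100751304, with score 69.6 and rank 4821 (48.6), 44.7 kb from any LIF+BMP-4 peak. It was the only peak of the 4 windows found in LIF+serum alone. In the other 3 windows the highest peak of both lists was the same region. How often this holds in tiles with peaks of both lists was not computed. Neither these 3 windows nor Stat3 can therefore be called unusual in this.

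At the Socs3 locus, the feedback inhibitor, 1 region stood out in LIF+BMP-4. It lay 6.92 kb from the centre, at chr11:117836671-117837177 in LIF+BMP-4 and chr11:117836679-117837169 in LIF+serum, with midpoints 0 bp apart. It scored 172 and ranked 1319 in LIF+BMP-4 (percentile 91.0), and scored 69.4 and ranked 4868 in LIF+serum (48.1). It was the highest peak of the window in both lists. It was placed higher within the LIF+BMP-4 list than within the LIF+serum list, and without replicates that gap has no error.

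The second shared Socs3 region, at chr11:117892714-117893250 in LIF+serum, showed the same order at a lower level. Its rank was 8601 among LIF+serum peaks (8.35) and 8347 among LIF+BMP-4 peaks (43.2). The 2 peaks found in LIF+BMP-4 alone scored in the lower part of the list. They lay at chr11:117755898-117756356 (rank 9026, percentile 38.6) and chr11:117908165-117908471 (rank 13330, percentile 9.25). The Socs3 peaks were spread out, with at least 14.9 kb between neighbours of the same list.

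At the Junb locus, an AP-1 gene induced by LIF, the top region was the same in both media. It was at chr8:87521266-87522531 in LIF+serum, where it scored 275 and ranked 175 (percentile 98.1). In LIF+BMP-4 it was at chr8:87521478-87522315, scored 343 and ranked 218 (98.5). Its midpoints lay 2 bp apart, 21.9 kb from the centre. It was the highest-ranked region of all 4 windows in either list.

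A cluster of 3 shared regions lay on the other side of the Junb window, within 6.15 kb at chr8:87436986-87443133. In LIF+serum its peaks ranked 6698, 371 and 3174 from left to right (percentiles 28.6, 96.0 and 66.2). In LIF+BMP-4 they ranked 965, 3256 and 5485 (93.4, 77.8 and 62.7). The strongest call of the cluster was therefore the second region in LIF+serum and the first in LIF+BMP-4. The LIF+serum peaks of these first 2 regions were 158 bp apart, and how the caller divided the signal there was not tested.

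This cluster held most of the closely spaced peaks of the 4 loci. Another peak of the same list lay within 5 kb of 3 of 13 LIF+serum peaks, all in the cluster, against 20.4% of the LIF+serum list. In LIF+BMP-4 it was 5 of 21, with 3 in the cluster and 2 at Stat3, against 28.3%. These shares were near those of the lists. The last shared Junb region, at chr8:87512808-87513889 in LIF+serum, scored low in both, with ranks 6901 and 13032 (26.5 and 11.3). The LIF+BMP-4 list alone had low-scoring peaks at chr8:87473802-87474324 (rank 13808) and at chr8:87503484-87504023 (rank 11970). The latter was the Junb peak nearest the centre, at 3.75 kb.

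At the Pim1 locus, a kinase gene induced by LIF, 1 high-scoring shared region and 2 high-scoring peaks of LIF+BMP-4 alone were found. The shared region was at chr17:29678217-29679087 in LIF+serum, with score 255 and rank 214 (percentile 97.7). In LIF+BMP-4 it was at chr17:29678291-29678996, with score 196 and rank 957 (93.5). It was the highest of the window in both lists and lay 48.6 kb from the centre. The other shared regions scored lower. That at chr17:29564348-29565104 ranked 4084 and 6530 (56.5 and 55.6), and that at chr17:29596262-29597108 ranked 6265 and 11033 (33.2 and 24.9).

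The 3 peaks that LIF+BMP-4 alone had at Pim1 included the 2 highest of its kind in the 4 windows. The peak at chr17:29587778-29588644 scored 177 and ranked 1240 (percentile 91.6). Of the 9013 LIF+BMP-4 peaks without a LIF+serum partner, 1.26% scored as high. The nearest LIF+serum peak was 7.62 kb away. The peak at chr17:29628741-29629319 scored 139 and ranked 2155 (85.3), a score reached by 4.32% of those 9013 peaks, and the nearest LIF+serum peak was 31.6 kb away. It lay 0.971 kb from the centre of the window, nearer than any other peak of the 4 windows. The last, at chr17:29604444-29604724, ranked 12297 (16.2).

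Over the 9 peaks called in LIF+BMP-4 only, the median percentile was 24.7, against 59.1 for the 12 shared ones in the same list. Scores of 100 or more were held by 3 of the 9, the 2 at Pim1 and 1 at Stat3, against 15.3% of all LIF+BMP-4 peaks without a partner. In the whole LIF+BMP-4 list 29.7% of peaks reached 100, so lower scores of peaks without a partner were not particular to the windows. The other 6 scored between 52.0 and 67.6, in a list with a lowest score of 50.0 and a median of 76.4. The highest of these 6 was ordinary for its kind, as 49.6% of LIF+BMP-4 peaks without a partner scored as high. Near the centres of the windows, the closest LIF+serum peak was 6.92 kb away at Socs3, 13.3 kb at Junb, 29.1 kb at Stat3 and 33.3 kb at Pim1. In LIF+BMP-4 these distances were 6.92, 3.75, 16.2 and 0.971 kb.

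**Figure D3:**
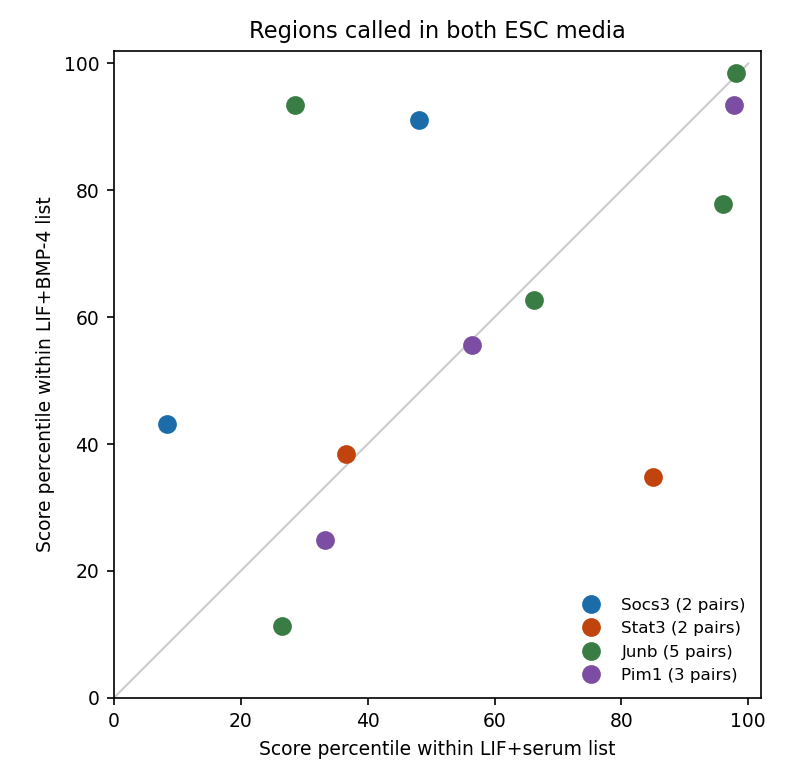
Score percentile of the 12 regions called in both ESC media, within the LIF+serum list (x axis) and within the LIF+BMP-4 list (y axis), coloured by locus. The line marks equal percentiles. Socs3 has both its regions above the line (48.1 and 91.0; 8.35 and 43.2), and 1 Stat3 region lies far below it (85.0 and 34.8).

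Across the 12 shared regions, the percentile was higher within LIF+BMP-4 for 5 and higher within LIF+serum for 7. The percentiles of a region were at most 5 points apart in 5 regions and at most 20 points apart in 8. The 4 with larger gaps were both Socs3 regions and the first region of the Junb cluster, placed higher in LIF+BMP-4, and the Stat3 region at chr11:100860402-100861270, placed higher in LIF+serum. Over all 5330 pairs, 61.2% had the higher percentile within LIF+BMP-4 and 38.8% within LIF+serum. Percentiles were at most 5 points apart in 19.3% of all pairs and at most 20 points apart in 52.2%, so gaps over 20 points were common in these lists (47.8%). The 2 lists differ in length and were ranked apart, so the gaps describe the lists and do not measure a change in binding.

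In ESD-EpiSCs, where BMP-4 was added without LIF being named, no peak was called in any of the 4 windows at 1.5 h or at 24 h. This count cannot be read as lost binding. A peak at 1.5 h was present in only 1.47% of tiles and one at 24 h in 0.881%. Only 0.735% of LIF+serum peaks and 0.517% of LIF+BMP-4 peaks overlapped an ESD-EpiSC peak of either time. A count of 0 in 4 windows is therefore what most tiles gave. The number of reads behind the lists is unknown.

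The nearest ESD-EpiSC peaks lay outside the windows, in lists with few peaks. At 1.5 h there were 14 peaks on chromosome 11, 34 on chromosome 8 and 13 on chromosome 17. At 24 h there were 2, 22 and 3. Distances from other tiles to an ESD-EpiSC peak were not computed, so whether those below are large for such lists was not tested. At 1.5 h the closest was 249 kb beyond the edge of the Junb window, at chr8:87848582-87848673 (rank 174 of 225). For Socs3 it was at chr11:117265207-117265365, 465 kb outside (rank 54), and it overlapped a LIF+BMP-4 peak. For Stat3 and Pim1 the distances were 811 kb and 2047 kb. At 24 h the distances were 696 kb for Junb, 2172 kb for Socs3, 8989 kb for Pim1 and 19222 kb for Stat3. With windows widened to 400 kb the count was still 0 at both times, which these distances already fixed.

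A high-scoring region lay just beyond the Pim1 window. Its peaks lay 11.0 and 11.3 kb past the right edge, at chr17:29740990-29742410 in LIF+serum (score 272, rank 177) and chr17:29741255-29741843 in LIF+BMP-4 (score 352, rank 206). In each list it ranked above every peak inside that window. Just outside the Junb window, the nearest peaks on the left were 27.5 kb from the edge and had rank 2055 (LIF+serum) and rank 9511 (LIF+BMP-4). Around Socs3 and Stat3 the nearest outside peaks were 63.4 kb or more from the edge. Among peaks inside, those nearest an edge were the Stat3 region 19.2 kb from it and the Socs3 peak at chr11:117908165-117908471, 21.7 kb from it.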

How the data were processed

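For each precipitated library the authors deposited its own peak list (position, name and score of each peak). Tools in the submitters' processing notes are Bowtie 1.1.0, Picard and MACS 1.4.2, with mm9 as the build and no roles. The deposited score has no stated scale and was used to rank peaks within a list; a limit of 100 was also set on each list, and need not be equally strict in both. Control libraries, filters and read numbers are not stated in the labels or files. Input DNA libraries (2) were not analysed here.

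Overlap means at least 1 bp. Tiles of 200 kb run from the first to the last peak of each placed chromosome. Positions are 1-based. Intervals are exact 95% binomial intervals. Python 3.11.15, numpy 2.4.6, pandas 2.3.3, scipy 1.17.1 and matplotlib 3.10.9 were used, and overlap and tile counts were tested on simulated data.

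The windows and lists of genes were chosen with earlier results of these data known. The rule for named positions took every shared region, the highest peak of each list in each window and any ESD-EpiSC peak; other peaks were named after their values were seen. The gene table and promoters belong to GRCm38.p6, so windows for further LIF pathway genes were not made. Alternatives covered score, window width, overlap, peak width, merging of close peaks and list length.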

Additional observations from a re-analysis of the deposited data

How the results depend on the processing

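No paired analysis was possible because each group is 1 library. In the windows, 4 LIF+serum and 8 LIF+BMP-4 peaks scored at least 100, windows of 100 kb held 7 and 13, and lists of equal length left 13 LIF+BMP-4 peaks; each follows from fewer peaks or less sequence. Of the other planned settings for the main values, 21 kept them within their limit and 6 left a count of 0 ESD-EpiSC peaks at 0, which shows no stability. Median percentiles among peaks scoring at least 100, which rank fewer peaks, were 86.5 in LIF+serum (from 48.6) and 70.7 in LIF+BMP-4 (from 43.2). Shares and medians were held to their 95% interval, and counts to 1.5 times. For the medians the interval was 28.6 to 96.0 in LIF+serum and 24.7 to 85.3 in LIF+BMP-4. Intervals this wide are seldom left, so a share or median kept within its own shows little stability. The share of the LIF+serum window peaks with a LIF+BMP-4 partner ranged from 69.2% (lists of equal length) to 92.3%, and the reverse share from 37.5% (score of at least 100) to 69.2%. With 4 and 8 peaks at a score of at least 100, those shares are placed very loosely. Counts of single windows moved past 1.5 times in 16 of 40 settings. Tiles shifted by 100 kb, a setting chosen after seeing the data, held a LIF+serum peak in 35.2% and a LIF+BMP-4 peak in 45.7% of tiles. Unknown depth limits every statement about a place without a peak.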
